A study of Mus musculus with 6 samples.

Results

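The genes described here write, copy or remove the methyl marks on DNA cytosines in the mouse blastocyst. They are 10 of the 49993 genes in the table, chosen by name: Dnmt1, Dnmt3a, Dnmt3b, Dnmt3l, Uhrf1, Tet1, Tet2, Tet3, Dppa3 and Tdg. All 10 had enough counts to be tested. RNA from mouse blastocysts was sequenced in 2 groups of 3 libraries. In both groups the mothers were superovulated with 10 IU of PMSG and, 48 h later, 10 IU of hCG, and then mated naturally. Embryos of the in vivo group grew in the mother and were flushed from the uterus at day 3.5. Embryos of the in vitro group were also fertilised in the mother, were taken from the oviduct as zygotes 19 to 21 h after hCG, had their cumulus cells removed with hyaluronidase, and grew to blastocysts in KSOM medium at 37 °C under 5% CO2. The study asked which genes accompany telomere shortening in cultured embryos. The strain was not given in the sources used here. Blastocysts of both groups were picked by their stage and appearance, so embryos that did not reach that stage are not represented. No collection time of the cultured blastocysts is given here, so the groups may differ in age.

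The labels do not say with one voice what was sequenced. The tissue is given as blastocysts, the source as inner cell mass, the cell type as embryonic stem cell, and each library as a single inner cell mass. Markers of trophectoderm, the outer layer of the blastocyst, summed to between 599.8 and 1615 CPM (counts scaled to a common library size) in the 6 libraries, and markers of epiblast, the inner cells that form the fetus, to between 821 and 1859 CPM. RNA of both marker lists was thus present in every library. The labels do not state that the libraries came from separate mothers, so the p-values measure only the spread between these samples.

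Total counts ran from 6918288 to 17643429 per library. Counts were scaled to CPM with TMM factors, which correct for a few very abundant RNAs, and 14301 genes were tested. In vivo library 3 stood apart: its rank correlation was 0.786 and 0.793 with the other in vivo libraries, which correlated at 0.942 with each other. A single ribosomal RNA gene, Rn18s-rs5, took from 16.7% of the counts, in in vivo library 1, to 41.7%, in in vivo library 3. Genes of the Y chromosome gave 1 count in in vitro library 2 and 1139 to 1693 in the others, and Xist, the RNA that silences an X chromosome, gave 7494 counts there and 8 to 341 in the others. The differences below come from RNA of whole embryos or their inner cells, where fewer cells of a type and less RNA per cell cannot be told apart.

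DNA methylation in mammals sits mostly on the cytosine of CG pairs (CpG sites). Dnmt3a and Dnmt3b place new marks with the help of Dnmt3l, and Dnmt1, brought to freshly copied DNA by Uhrf1, restores marks after replication. Tet1, Tet2 and Tet3 oxidise the methyl group, Tdg cuts out the more oxidised forms, and Dppa3 (also called Stella) shields the maternal genome from oxidation and binds Uhrf1. The preimplantation embryo loses most of the methylation that came with egg and sperm, and new methylation rises as the embryo implants.

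Dnmt3b was the member that differed most. Its gene lies at chr2:153649411-153687730 on the plus strand of GRCm38. Bases before its span and before the first start of its cofactor Dnmt3l are shown, because both genes act in the same complex and their promoters differ in CpG content. CG pairs are in capitals.
Dnmt3b, chr2:153649199-153649410, plus strand: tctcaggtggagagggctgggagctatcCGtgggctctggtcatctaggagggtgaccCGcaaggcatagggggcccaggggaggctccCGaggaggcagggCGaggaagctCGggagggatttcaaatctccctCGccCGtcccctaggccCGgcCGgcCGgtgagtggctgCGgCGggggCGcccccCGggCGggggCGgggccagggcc
Dnmt3l, chr10:78042037-78042286, plus strand: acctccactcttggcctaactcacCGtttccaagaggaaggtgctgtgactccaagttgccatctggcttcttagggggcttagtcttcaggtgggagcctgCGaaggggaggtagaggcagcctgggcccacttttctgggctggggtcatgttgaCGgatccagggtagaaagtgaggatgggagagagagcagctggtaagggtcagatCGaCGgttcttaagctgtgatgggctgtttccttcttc
The Dnmt3b stretch holds 16 CpG sites. The RefSeq promoter window of 250 bases runs 38 bases further, into the gene span, and holds 21 CpG sites at a GC content of 75.2%, and 80.5% of the 21263 protein-coding promoter windows compared hold as many or fewer. The Dnmt3l stretch holds 5, and its other annotated starts hold 4 and 3, against a median of 10. RefSeq promoters (GRCm38.p6) were matched for 9 of the 10 members. Among the others, CpG sites numbered 51 at Tet2, a count that 99.9% of promoters do not exceed, 19 at Tdg, 17 at Tet3, 15 at Tet1, 10 and 30 at Uhrf1, 38, 40 and 15 at Dnmt3a, and 26, 7 and 2 at Dnmt1. The search was for the letters CG, which read the same on both strands. These are sequence descriptions, and methylation was not measured.

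Dppa3 needs its sequence beside its counts, because the X chromosome carries a processed copy, the pseudogene Dppa3-ps, which the table lists as a gene of its own. Over the 451 bases of the copy, 443 were identical to the Dppa3 transcript (98.2%). Exon 2 of Dppa3, all of it coding, and the matching stretch of the copy are shown with their 5 mismatches in capitals.
Dppa3, chr6:122628577-122628809, plus strand: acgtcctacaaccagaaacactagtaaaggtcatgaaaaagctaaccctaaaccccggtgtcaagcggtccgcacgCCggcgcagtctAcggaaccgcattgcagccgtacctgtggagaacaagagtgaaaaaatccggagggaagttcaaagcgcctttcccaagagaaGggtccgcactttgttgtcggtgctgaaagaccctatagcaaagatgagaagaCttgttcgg
Dppa3-ps, chrX:37625779-37626011, minus strand: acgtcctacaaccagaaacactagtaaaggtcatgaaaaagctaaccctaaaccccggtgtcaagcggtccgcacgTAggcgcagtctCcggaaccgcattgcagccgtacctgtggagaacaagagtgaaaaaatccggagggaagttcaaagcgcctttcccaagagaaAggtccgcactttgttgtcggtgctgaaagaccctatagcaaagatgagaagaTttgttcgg
A read that covers none of the capitals fits both places equally well, so the division of counts between the gene and the copy is uncertain.

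Dnmt3b RNA was on average 5.96 times as high in cultured blastocysts as in blastocysts from the mother, and Dppa3 RNA was at 0.492 of its in vivo level. The groups overlapped for Dppa3 and for the other 8 members, among them Dnmt1, Dnmt3a and the Tet genes. Tests disagreed on Dnmt3b: it passed with DESeq2 and limma-voom and did not with edgeR, the main test. With edgeR's quasi-likelihood test and Benjamini-Hochberg adjustment over 14301 genes, 0 genes (0%) had an adjusted p under 0.05, and the smallest adjusted p was 0.306. At an unadjusted p under 0.05 there were 2 members, Dnmt3b on the higher side in vitro and Dppa3 on the lower, beside 1458 of all genes (10.2%), 731 higher and 727 lower. DESeq2 called 1 member, Dnmt3b, beside 2.81% of the 16337 genes it tested. The limma-voom test with sample weights also called 1 member, Dnmt3b, beside 0.713% of genes. Dnmt3b was likewise the 1 member whose groups did not overlap, where 19.3% of all genes did not. Fold changes were positive, that is higher in vitro, for 8 members and negative for 2, beside 49.8% positive among all genes tested. The median log2 fold change of the members was 0.41 against −0.01 for all genes tested. Replicate libraries varied widely, with a common biological coefficient of variation of 0.727.

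**Figure D1:**
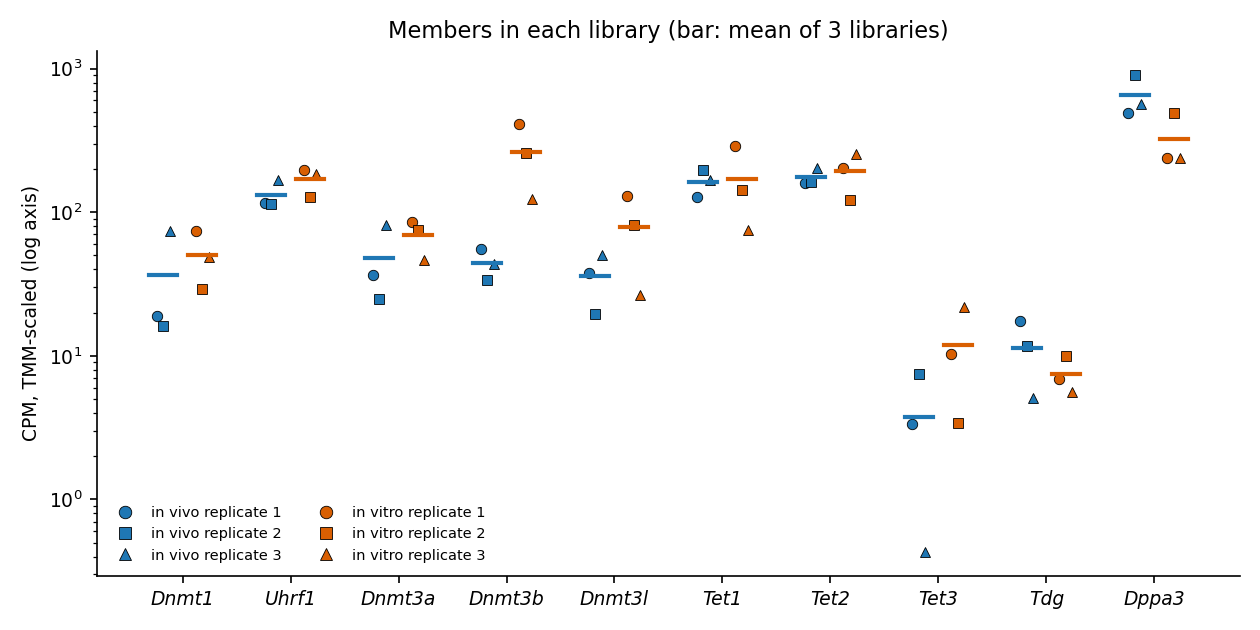
CPM on a log scale for each of the 10 members, 1 point per library, in vivo and in vitro, with a line at each group mean. The Dnmt3b points of the 2 groups are apart, and those of the other 9 members overlap.

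Dnmt3b, one of the enzymes that methylate unmarked DNA, stood at 55.4, 33.9 and 43.8 CPM in vivo, and after culture at 411, 260.0 and 123 CPM. Every cultured library was above every in vivo library, and the cultured libraries also spread more widely. The means were 44.4 ± 10.8 CPM (SD, n = 3) and 264 ± 144 CPM (SD, n = 3), a ratio of 5.96. The log2 fold change was 2.57 ± 0.47 (SE), and its unadjusted p in the edgeR test, 0.000362, ranked 10 among the 14301 genes, with an adjusted p of 0.306. Over the edgeR alternatives the adjusted p of Dnmt3b ran from 2.1e-06, without the filter on low counts, to 0.869, without in vivo library 2. DESeq2 gave a log2 fold change of 2.59 ± 0.52 (adjusted p = 0.000256) and limma-voom 2.57 ± 0.39 (adjusted p = 0.0396). With any 1 of the 6 libraries left out, DESeq2 still called Dnmt3b, at adjusted p from 9.6e-08 to 0.0138, in fits that called 0.949% to 5.62% of genes. The log2 fold change stayed between 2.12 and 2.92 under the alternatives tried. The pseudogene Dnmt3b-ps1 gave at most 64 counts in any library, where Dnmt3b itself gave 423 to 3538.

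Dnmt3a, the second de novo enzyme, was at 36.5, 24.8 and 81.5 CPM in vivo, and after culture at 85.0, 75.3 and 46.1 CPM. The groups overlapped because in vivo library 3 lay near the cultured libraries. Its log2 fold change was 0.53 ± 0.49 (SE; edgeR adjusted p = 0.758), and with limma-voom 1.17 ± 0.36 (SE; limma-voom adjusted p = 0.125). In the edgeR fit without in vivo library 3 it was 1.17 and the groups did not overlap. In that comparison 37.7% of all genes did not overlap. The Dnmt3a span also holds Dnmt3aos and Gm31623, which share no exon base with it, and the copy Dnmt3a-ps1, 89.8% identical over 761 bases, gave 9 to 48 counts.

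Dnmt3l, which has no methylating activity of its own and stimulates the de novo enzymes, was at 37.6, 19.6 and 50.3 CPM in vivo. It was at 130.0, 81.0 and 26.7 CPM in vitro. In vitro library 3 fell among the in vivo values, while the other cultured libraries were above all of them. The log2 fold change was 1.14 ± 0.58 (SE; edgeR adjusted p = 0.540). Leaving out in vitro library 3 separated the groups, as it did for 29.1% of all genes.

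The mix of the catalytic enzymes was set on a common scale by dividing CPM by gene length in kilobases. Of the summed level of Dnmt1, Dnmt3a and Dnmt3b, Dnmt3b made up 68.1%, 62.2% and 33.5% in vivo, and 82.5%, 85.4% and 68.8% after culture. The lowest cultured share was just above the highest in vivo share. Dnmt1 held 21.3%, 27.2% and 51.9% in vivo and 13.5%, 8.83% and 25.1% in vitro, which overlapped, and Dnmt3a 10.5%, 10.7% and 14.6% against 4.01%, 5.80% and 6.07%, which did not. Each share depends on the other members, and the mean Dnmt3a level itself was 68.8 ± 20.2 CPM in vitro and 47.6 ± 29.9 CPM in vivo (SD, n = 3 each). Taking the longest coding transcript as the length instead, a choice made after seeing the data, gave Dnmt3b 64.7%, 59.6% and 32.5% in vivo and 81.7%, 82.5% and 68.4% in vitro. It gave Dnmt3a larger shares, 19.0%, 19.4% and 27.0% in vivo and 7.54%, 10.7% and 11.5% in vitro, still without overlap.

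**Figure D2:**
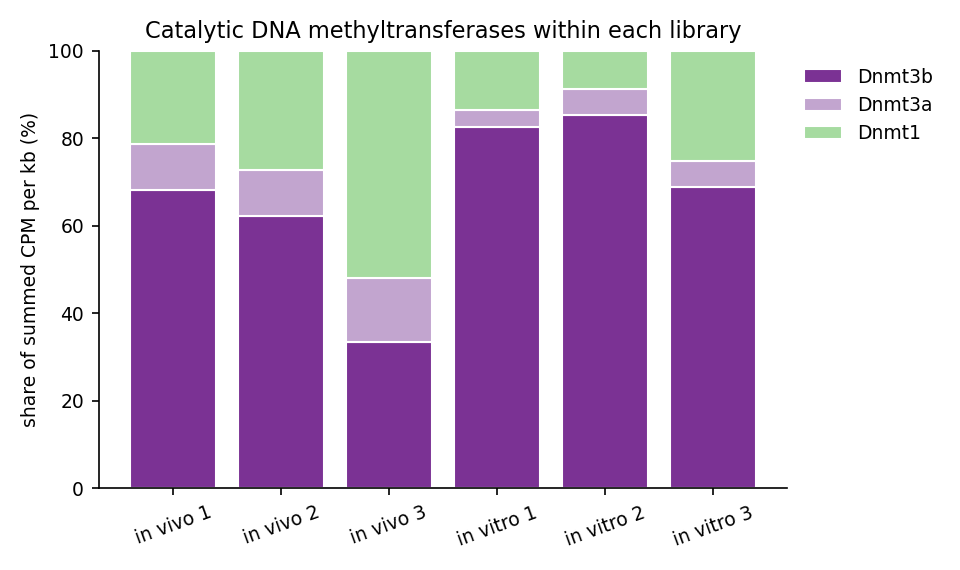
Share (%) of the summed CPM per kilobase of Dnmt1, Dnmt3a and Dnmt3b in each library, stacked to 100. Dnmt3b makes up 68.8% to 85.4% in the in vitro libraries and 33.5% to 68.1% in the in vivo libraries.

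Within libraries, the count ratio of Dnmt3b to Dnmt3a was 1.52, 1.37 and 0.538 in vivo and 4.83, 3.45 and 2.66 in vitro. Against Dnmt3l it was 1.47, 1.73 and 0.871 in vivo and 3.16, 3.21 and 4.60 in vitro. Both ratios were higher in every cultured library than in any in vivo library. Against Dnmt1 the ratio was 2.92, 2.09 and 0.591 in vivo and 5.59, 8.85 and 2.51 in vitro, and the groups overlapped. Such ratios were formed for 8 pairs, chosen after their values were seen, so their tests support nothing. An exact two-sided permutation test, which cannot go below p = 0.1 with 3 against 3, gave p = 0.1 for the ratios to Dnmt3a and Dnmt3l (0.16 adjusted over the 8) and p = 0.2 for the ratio to Dnmt1 (0.267 adjusted).

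Among the maintenance genes, Dnmt1 lay at 19.0, 16.2 and 74.1 CPM in vivo, and after culture at 73.4, 29.4 and 48.9 CPM. The in vivo mean of 36.4 ± 32.7 CPM (SD, n = 3) was carried by library 3, which was the highest of all. The log2 fold change was 0.47 ± 0.63 (SE; edgeR adjusted p = 0.846), and it was 1.53 without that library. With limma-voom on all libraries it was 1.23 ± 0.43 (SE; limma-voom adjusted p = 0.167). Uhrf1, the reader of half-methylated DNA that recruits Dnmt1, was at 116, 114 and 167 CPM in vivo, and after culture at 198, 127 and 185 CPM. Its groups overlapped, and its log2 fold change was 0.36 ± 0.32 (SE; edgeR adjusted p = 0.754). The count ratio of Uhrf1 to Dnmt1 was 6.12, 7.07 and 2.26 in vivo and 2.69, 4.34 and 3.78 in vitro, lowest in in vivo library 3.

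The Tet genes, whose enzymes oxidise methylcytosine, gave no difference beyond the spread. Tet1 stood at 127, 197 and 166 CPM in vivo, and after culture at 289, 143 and 74.8 CPM. The cultured libraries included both the highest and the lowest of the 6. The log2 fold change was 0.05 ± 0.47 (SE; edgeR adjusted p = 0.985), and its sign turned in several alternatives. Tet2 was at 160.5, 163 and 203 CPM in vivo, and after culture at 203, 121 and 256 CPM, with a log2 fold change of 0.14 ± 0.34 (SE; edgeR adjusted p = 0.925) that was −0.19 when library totals alone set the scale. Tet3, the form supplied by the egg, had few counts, between 6 and 168. Its 3.37, 7.45 and 0.431 CPM in vivo, and after culture at 10.4, 3.38 and 22.0 CPM gave a log2 fold change of 1.66 ± 1.08 (SE; edgeR adjusted p = 0.637). That value was 2.63 without in vivo library 2, 0.87 without in vitro library 3 and 0.52 with limma-voom.

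Per kilobase, Tet2 made up most of the Tet RNA in all 6 libraries: 70.0%, 60.0% and 69.9% in vivo and 56.1%, 60.9% and 82.1% in vitro. Tet1 made up 28.9%, 38.0% and 30.0% against 41.8%, 37.8% and 12.6%. Tet3 held at most 5.28%. The count ratio of Tet1 to Tet2 was 0.789, 1.21 and 0.820 in vivo and 1.42, 1.18 and 0.292 in vitro, and the cultured libraries held both its highest and its lowest value.

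Tdg, the glycosylase that removes oxidised methylcytosine, had 39 to 222 counts. It lay at 17.4, 11.7 and 5.10 CPM in vivo, and after culture at 6.85, 9.99 and 5.62 CPM, with a log2 fold change of −0.60 ± 0.69 (SE; edgeR adjusted p = 0.809). Tdg-ps and Tdg-ps2 are 98.7% and 99.2% identical to it over their length. Tdg-ps2 held 294, 197 and 48 counts in vivo and 80, 284 and 139 in vitro, as many as Tdg or more in 5 of the 6 libraries. When the counts of the gene and both copies were summed, the 43.8, 29.4 and 10.3 CPM in vivo, and after culture at 24.8, 34.1 and 27.2 CPM gave a log2 fold change of 0.044 (edgeR adjusted p = 0.989). The sign of the Tdg value thus turned when its near-identical copies were added.

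Dppa3 had the highest level of the members per kilobase in both groups. It stood at 489.5, 908 and 569 CPM in vivo, and after culture at 238, 492 and 237 CPM. The highest cultured library lay just above the lowest in vivo library, and the others were apart. The means were 655 ± 222 CPM and 322 ± 147 CPM (SD, n = 3 each), a ratio of 0.492. The log2 fold change was −1.02 ± 0.40 (SE) at an unadjusted p of 0.0292 and an adjusted p of 0.440 in the edgeR test. It ran from −1.48 to −0.72 over the alternatives. DESeq2 gave an adjusted p of 0.245 with all libraries and 0.0401 without in vitro library 2, a fit that called 855 genes (5.36%).

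The copy went the same way. Dppa3-ps held 6188, 11576 and 6089 counts in vivo and 767, 4655 and 1106 in vitro, and its groups did not overlap. Its log2 fold change was −1.57 ± 0.46 (SE; edgeR adjusted p = 0.362). Gene and copy together, a sum chosen after the data were seen, stood at 975, 1836 and 1006 CPM in vivo, and after culture at 373, 834 and 381 CPM. Every cultured library was below every in vivo library, and the log2 fold change was −1.26 ± 0.42 (SE; edgeR adjusted p = 0.399, DESeq2 adjusted p = 0.146). The copy held 0.991, 1.02 and 0.770 counts per Dppa3 count in vivo and 0.566, 0.695 and 0.611 in vitro. The ratio was lower in all 3 cultured libraries, at an exact two-sided permutation p of 0.1 (0.16 adjusted over the 8 ratios), the smallest possible. This pair too was chosen after its values were seen, so the test supports nothing, and the division of counts between gene and copy is uncertain.

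**Figure D3:**
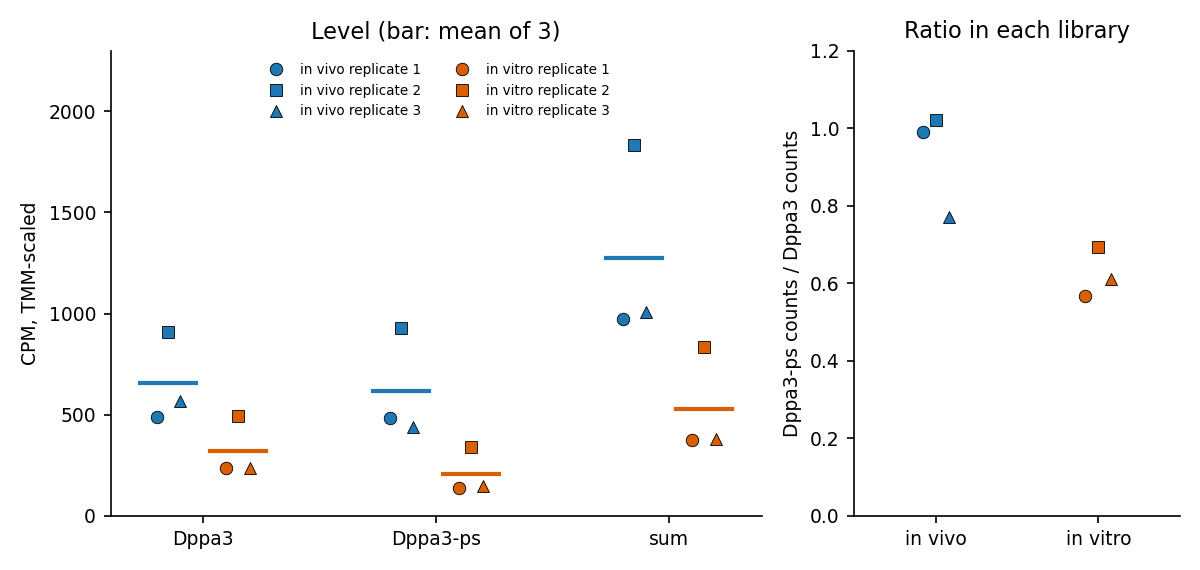
Dppa3, its X-linked copy Dppa3-ps and their sum in each library, in CPM. For the sum, the in vitro libraries (373 to 834 CPM) lie below the in vivo libraries (975 to 1836 CPM).

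The count ratio of Dnmt3b to Dppa3, the members of smallest unadjusted p, was 0.113, 0.0373 and 0.0770 in vivo and 1.73, 0.528 and 0.518 in vitro. The pair was chosen for opposite directions, so the gap only restates both results within each library.

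**Figure D4:**
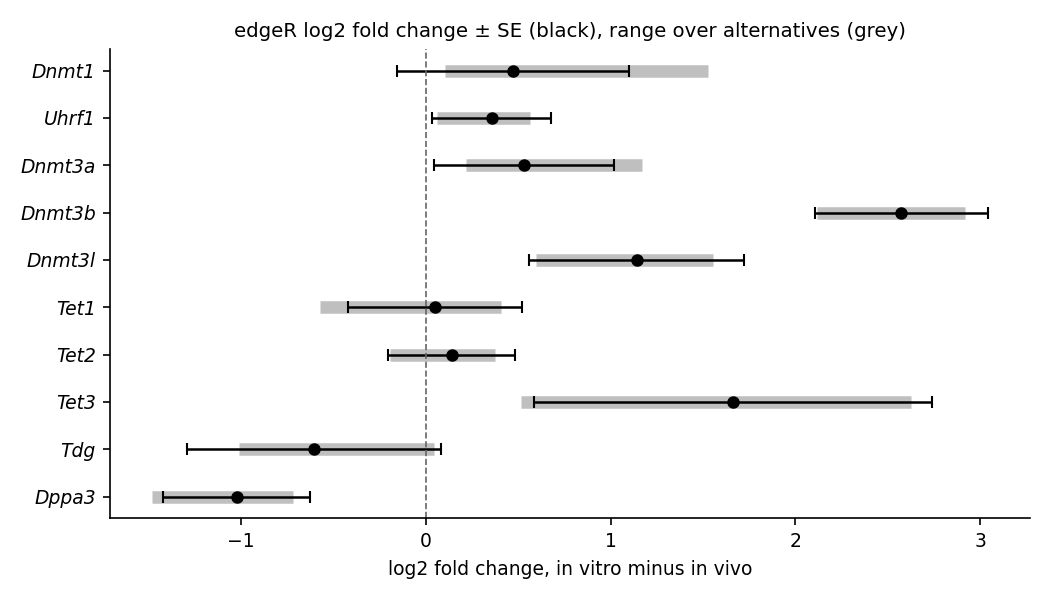
Log2 fold change of each member, positive where higher in vitro, with its SE from the edgeR fit, and the range over the alternatives. Dnmt3b lies at 2.57 and Dppa3 at −1.02. Tet1, Tet2 and Tdg have ranges that cross 0.

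Levels of different members were compared only as CPM per kilobase of the gene length in the table. In vivo the order of the means was Dppa3 (801), Uhrf1 (35.7), Tet2 (18.2), Dnmt3l (13.4), Tet1 (8.88), Dnmt3b (7.67), Dnmt1 (5.76), Tdg (3.22), Dnmt3a (1.93) and Tet3 (0.292). Neighbours in this order had libraries that did not overlap only for Dppa3 over Uhrf1, Uhrf1 over Tet2 and Dnmt3a over Tet3. In vitro the order was Dppa3 (394), Uhrf1 (45.7), Dnmt3b (45.7), Dnmt3l (29.7), Tet2 (20.1), Tet1 (9.20), Dnmt1 (7.99), Dnmt3a (2.79), Tdg (2.11) and Tet3 (0.925). Here only Dppa3 over Uhrf1 and Dnmt1 over Dnmt3a were free of overlap. Dnmt3b went from rank 6 in vivo to rank 3 in vitro, with a mean almost equal to that of Uhrf1. With the longest coding transcript as length, it was at rank 6 in vivo and rank 2 in vitro. The table's length of Dnmt3a, 24667 bases, is longer than its longest coding transcript of 9685 bases, which lowers its level per kilobase.

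The other genes of the pathway were read from lists of 78 genes, of which 77 were in the table and 62 were tested. Of these, 41 had positive and 21 negative fold changes, where 49.8% of all genes tested were positive. At an unadjusted p under 0.05, 7 were higher and 2 lower in vitro (10.2% of all genes in both directions), and 0 passed the edgeR adjustment. DESeq2 called 4 of the 62, and 6 of the 77 in the table, beside 2.81% of the genes it tested. Groups did not overlap for 16 of the 62, against 19.3% of all genes, and the median log2 fold change was 0.46.

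Among 7 tested partners of maintenance methylation, 6 had positive fold changes, beside 49.8% of all genes. At an unadjusted p under 0.05, 1 was higher and 1 lower, beside 10.2% of all genes. Lig1, the ligase that joins newly copied DNA, was at 47.5, 28.8 and 49.5 CPM in vivo, and after culture at 137, 78.8 and 63.4 CPM (log2 fold change 1.15 ± 0.41, edgeR adjusted p = 0.415). Dmap1, a protein that binds Dnmt1, went the other way, from 26.1, 32.5 and 27.6 CPM to 6.67, 16.2 and 10.3 CPM (−1.37 ± 0.49, edgeR adjusted p = 0.416). Hells, a chromatin remodeller needed for methylation, gave 0.73 ± 0.34. Groups did not overlap for these 3 of the 7 genes, against 19.3% of all genes.

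Of 12 tested regulators and cofactors of de novo methylation, 10 had positive fold changes, beside 49.8% of all genes. At an unadjusted p under 0.05, 2 were higher and 0 lower, beside 10.2% of all genes. Kdm1b, a histone demethylase needed to set methylation in the egg, was at 3.37, 2.48 and 0 CPM in vivo, and after culture at 19.5, 3.97 and 26.5 CPM. Kdm2b, which binds unmethylated CpG-rich DNA, was at 27.3, 26.7 and 3.31 CPM against 39.2, 66.4 and 64.2 CPM. Their log2 fold changes were 3.09 ± 1.34 and 1.57 ± 0.69. Ehmt1, a histone H3 lysine methyltransferase, gave 0.81 ± 0.40.

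Readers of methylated DNA had 4 tested genes, 3 of them positive and 0 past an unadjusted p of 0.05. The methyl-CpG binders Mbd1 and Mbd2 had log2 fold changes of 0.76 ± 0.48 and 1.04 ± 0.68. Guardians of imprints had 4, with 1 positive and 3 negative and a median of −0.05. Zfp57, which keeps methylation on imprinted regions, was at 62.3, 82.6 and 59.2 CPM in vivo, and after culture at 90.3, 24.1 and 24.1 CPM, so in vitro library 1 lay above all in vivo libraries and the other cultured libraries below them. Zfp445, a second imprint-binding zinc finger protein, had a log2 fold change of 0.55 ± 0.44, and Trim28, the corepressor both recruit, −0.06 ± 0.35.

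Partners of the Tet enzymes and suppliers of their cosubstrate gave 4 positive and 3 negative values among 7. Cxxc5, a CpG-binding protein linked to Tet2, was at 8.31, 4.73 and 7.12 CPM in vivo, and after culture at 21.1, 16.9 and 24.6 CPM, with a log2 fold change of 1.63 ± 0.54, and was called by DESeq2 (adjusted p = 0.0442). Idh1, which makes the 2-oxoglutarate that Tet enzymes consume, was at 216, 271 and 294 CPM in vivo, and after culture at 72.4, 98.9 and 210 CPM (−1.04 ± 0.42). Ogt, the sugar transferase that binds Tet proteins, gave 0.76 ± 0.37. Of 14 tested genes of base excision and deamination, 8 were negative and 0 passed an unadjusted p of 0.05. Apex1, the endonuclease that acts after Tdg, was at 185, 184 and 114 CPM in vivo, and after culture at 106, 105 and 95.3 CPM (−0.66 ± 0.31). Parp1, a sensor of DNA breaks, and Ung, which removes uracil, gave −0.51 ± 0.29 and −0.67 ± 0.39. In the methyl donor list, 1 of 5 was higher and 0 lower at an unadjusted p under 0.05, beside 10.2% of all genes. It was Ahcyl2, a relative of the enzyme that clears S-adenosylhomocysteine. Ahcyl2 was at 15.9, 9.14 and 11.9 CPM in vivo, and after culture at 40.6, 22.9 and 68.1 CPM (1.83 ± 0.51, DESeq2 adjusted p = 0.0392). Mat2a and Mat2b, subunits of the enzyme that makes S-adenosylmethionine, gave −0.54 ± 0.34 and 0.36 ± 0.43.

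Germline genes whose promoters are known to be silenced by methylation had positive values in 8 of 9 tested genes, beside 49.8% of all genes. Their median was 0.91, and 2 were higher at an unadjusted p under 0.05, beside 10.2% of all genes at that p. DESeq2 called 2 of the 9, and 3 of the 14 listed, beside 2.81% of all genes. Ddx4, a germ cell RNA helicase, had 3, 0 and 0 counts in vivo and 18, 87 and 15 in vitro (DESeq2 adjusted p = 0.0165). Sycp1, a protein of the meiotic chromosome axis, had 25, 3 and 11 counts in vivo and 59, 59 and 74 in vitro (DESeq2 adjusted p = 0.0420). Dazl, a germ cell RNA-binding protein, had 2, 0 and 0 counts in vivo and 103, 7 and 71 in vitro. It was too low for the edgeR filter, was called by DESeq2 (adjusted p = 0.000823), and is named after its values were seen. The counts of Ddx4, Sycp1 and Dazl are low. Rpl10l, a ribosomal protein gene of the testis, had more counts than these genes and stood at 31.3, 36.0 and 45.6 CPM in vivo. After culture it was at 64.6, 88.3 and 38.0 CPM, with overlap and a log2 fold change of 0.76 ± 0.40. Taf7l was at 0 in all 6 libraries.

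Among the lineages of the blastocyst, the summed markers of 1 separated the groups as Dnmt3b did, although no marker passed the edgeR adjustment. Those of primitive endoderm, the inner cells that line the cavity, summed to 341, 292 and 443 CPM in vivo. After culture they summed to 957, 698 and 641 CPM, without overlap, and all 10 markers had positive fold changes, beside 49.8% of all genes. Of the 10, 4 had an unadjusted p under 0.05 in the edgeR test, beside 10.2% of all genes. DESeq2 called 3 of the 10 and limma-voom 2, beside 2.81% and 0.713% of the genes they tested. Groups did not overlap for 7 of the 10, against 19.3% of all genes. Sox7, a transcription factor of that lineage, had 0, 0 and 1 counts in vivo and 112, 425 and 32 in vitro, and Foxa2, another of its transcription factors, had 0 in every in vivo library and 196, 54 and 22 in vitro. Epiblast markers summed to 1206, 1300.1 and 1063 CPM against 1859, 1088 and 821 CPM, and trophectoderm markers to 1245, 698 and 599.8 against 932, 1615 and 1540 CPM, both with overlap. Of the epiblast transcription factors, Sox2 had a log2 fold change of 1.35 ± 0.52 and Pou5f1 of −0.88 ± 0.41. Of those of trophectoderm, Gata3 had 0.94 ± 0.31 and Elf5 2.32 ± 0.86. Elf5 was at 6.27, 4.57 and 5.18 CPM in vivo, and after culture at 5.97, 11.8 and 62.4 CPM. Its groups overlapped, and in vitro library 3 carried most of the change. The part of lineage makeup in the Dnmt3b result was not tested. Cumulus and granulosa markers summed to 5.73, 11.7 and 10.4 CPM in vivo, and after culture to 0, 1.69 and 0 CPM, also without overlap. Of these, Cyp19a1, Fshr, Amh, Has2, Ptx3 and Inhba were at 0 in all libraries. Amhr2, a hormone receptor, made up the whole in vivo sum. Those of reproductive tract and blood summed to 11.7, 7.78 and 16.4 against 2.63, 6.47 and 3.79 CPM, again without overlap. Most of the in vivo sum was Muc1, an epithelial mucin, at 10.4, 4.65 and 15.5 CPM. Of that list Pgr, Ltf, Lcn2, Hbb-bs and Ptprc were at 0 in all libraries.

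The other members lie, on GRCm38, at chr9:20907206-20959888 (Dnmt1, minus strand), chr12:3801559-3914443 (Dnmt3a, plus), chr10:78042287-78063622 (Dnmt3l, plus), chr17:56303337-56323486 (Uhrf1, plus), chr10:62804570-62887469 (Tet1, minus), chr3:133463677-133545136 (Tet2, minus), chr6:83362373-83457208 (Tet3, minus), chr6:122626424-122630271 (Dppa3, plus) and chr10:82629814-82650799 (Tdg, plus), all protein-coding. Where gene spans overlap, counts may mix, since the counting is not stated to use strand. Tet1 shares 344 exon bases with Gm51805, which had 0 counts in every library, and Tdg shares 369 with Glt8d2, which had at most 1 count. No other member shares exon bases with an overlapping gene.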

How the data were processed

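The deposited table holds the raw read counts per gene that the authors made, for 6 libraries, with each gene's coordinates and length. FastQC 0.11.2, DESeq2 and GRCm39 come from the submitters' processing notes. No aligner or counting program was stated in the labels. The coordinates in the table equal those of RefSeq on GRCm38.p6 for 47550 of 47936 spans compared, including all 10 members, so GRCm38 is used here. Per the labels' protocols, libraries were made with a transposase kit, which does not mark strand.

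Counts were tested in R 4.3.3 with edgeR 4.0.16 (filterByExpr by group, TMM, robust quasi-likelihood F-test, two-sided, Benjamini-Hochberg over all genes tested, threshold 0.05). The SE of a fold change was derived from the F statistic. Alternatives were limma 3.58.1, as voom with sample weights, and DESeq2 1.42.0. The closing section gives their effect with that of other scalings, filters and left-out libraries. The fits were tested on simulated counts with less spread than these data and larger changes than those of the members. That test therefore does not show how the fits perform here. A count of 3 is worth 0.216 to 0.527 CPM, which limits low genes.

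Named were all members, up to 3 genes of smallest p per pathway list, up to 2 per marker list, marker genes at 0, and copies and overlapping genes of members. A gene that this rule also names is not reported here. The members and lists were chosen with earlier results of these data known. Copies were aligned with the transcripts of their parent genes in GENCODE vM21. The closest pair of libraries differed far beyond sampling noise (chi-square per degree of freedom 31.5), so no library was counted as a copy.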

Additional observations from a re-analysis of the deposited data

How the results depend on the processing

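With 3 libraries a group and wide spread, a member that missed the threshold is not shown to be unchanged. Genes called numbered 459 with DESeq2, 102 with limma-voom, 391 without the filter on low counts and 3 with edgeR's newer form, and 0 under the other edgeR alternatives, the replicate block and each left-out library included. DESeq2 called 152 to 907 genes with a library left out. DESeq2, limma-voom and the unfiltered fit each called 1 member, Dnmt3b. The members whose groups did not overlap were 2 without the filter, where the scaling also separated Dppa3, and 1 to 5 with a library left out, the 5 being without in vivo library 3. With a library left out, the share of all genes was 23.7% to 37.7%. That share was not formed without the filter. Of 162 member values under alternatives, 154 kept their direction. Tet1 reversed to −0.27 with library totals alone, −0.062 with limma-voom and −0.16 with the replicate block, and ran from −0.57 (without in vitro library 1) to 0.41 (without in vitro library 3) with a library left out. Tet2 reversed to −0.19 with library totals alone and ran from −0.11 to 0.37 with a library left out. Tdg reversed to 0.044 when summed with its copies, a change made by the added counts. The cause of the others was not tested, except that library totals alone moved the median of all genes to −0.31, against which Tet1 and Tet2 lie higher. The replicate block gave Dnmt3b 2.45 (edgeR adjusted p = 0.463). Deviations from the group mean correlated at −0.0986, 0.0960 and −0.0443 between libraries of the same number. Between libraries of different numbers they correlated at −0.0903 to 0.116. With 3 libraries a group, these values cannot tell whether the numbers mark pairs.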

Other observations

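Some genes followed the most changed members closely over the 6 libraries, given as a description. Among 6556 genes with a mean of at least 10 CPM, the highest correlations of log2 CPM with Dnmt3b were those of Dip2b (r = 0.991), Ankrd33b (0.988) and Ppp1r8 (0.986), and 28 genes passed 0.95. With Dppa3 they were Tmem201 (0.990), Nedd8 (0.979) and Gulo (0.967), and 15 passed 0.95. These correlations were not tested, and with 6 libraries and 6556 genes, values this high can arise without any link. Groups overlapped for Tmem201 and Nedd8 (log2 fold changes −0.41 and −0.24) and did not for Gulo (−1.76). Apobec2, a relative of the cytidine deaminases, had 6, 0 and 0 counts in vivo and 219, 72 and 2 in vitro. It was too low for the edgeR filter and was called by DESeq2 (adjusted p = 0.00605), and it is named after its values were seen. The copy Dnmt3l-ps1, 74.6% identical to Dnmt3l over 1230 bases, had 1, 1 and 0 counts in vivo and 61, 3 and 0 in vitro, so 1 cultured library held nearly all of them.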
